A study of Mus musculus with 6 samples.

Results

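The 4 mouse embryonic fibroblast (MEF) lines that served as controls in a study of RNase H2 were described on their own, as p53-/- Rnaseh2b+/+ fibroblasts at baseline. They make up 4 of the 6 arrays of the series. Members were the probes with a detection p under 0.01 on each of the 4 arrays, which held for 14387 of 45281 probes. The detection p is the share of an array's negative control beads that were at least as bright as the probe, so a low value marks a signal above background. The study asked how loss of RNase H2, the enzyme that removes ribonucleotides from DNA, affects innate immune signalling, and the Rnaseh2b-/- arrays were not compared here. Each line came from 1 whole C57BL/6J embryo at E10.5 that carried the Trp53 tm1Tyj null allele on both copies, and the labels give the lines as biological replicates. The fibroblasts were kept in 3% O2 and 5% CO2 with 10% serum, plated at 200000 cells per well and harvested 20 h after fresh medium was given. RNA was hybridised to 1-colour Illumina MouseWG-6 v2.0 arrays. Both groups of the series lack p53, so the lines are no model of fibroblasts with an intact p53 response, and no probe was named Trp53, so that genotype could not be checked on the arrays.

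MEFs are the adherent mesenchymal cells that grow out of a dissociated embryo. Because the whole embryo is used, fibroblasts from many body regions are mixed, and fibroblasts are known to keep the Hox and other patterning genes of the region they came from. p53 restrains division in cultured fibroblasts, and cells without it are known to go on dividing. Fibroblasts build connective tissue by secreting collagens and the enzymes that cross-link them.

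Detection was alike on the 4 arrays, at 15834, 15772, 15665 and 15972 probes in control lines 1 to 4. A further 1336 probes were detected on 1 array, 846 on 2 and 889 on 3, and 27823 on none. The largest p of a member was 0.0096, which 151 probes reached, with a median signal of 5.89 on the log2 scale, and 33 probes lay just outside at 0.0107, with a median signal of 5.85. Taken by gene, 8430 of 19057 named genes (44.2%) had a probe detected in all 4 lines, 1312 (6.88%) in 1 to 3 lines and 9315 (48.9%) in none. The normalized log2 signal of the 8430 genes had a median of 8.40 and ran from 5.63 to 14.90. Brightness depends on the probe as well as on the RNA, so signals rank genes only roughly, and a gene that was not detected need not be silent. Sdha, a subunit of a respiratory enzyme that nearly all cells use, was not detected in any line, and neither were Ccnb2 and Bub1, which dividing cells use.

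Rnaseh2b, which encodes a subunit of RNase H2 and is the gene deleted in the other arrays, was detected in all 4 control lines, at log2 signals of 9.81, 9.17, 9.48 and 9.50 in lines 1 to 4. Rnaseh2a, the catalytic subunit, had signals of 7.90, 7.22, 7.68 and 7.54. For Rnaseh2c, the third subunit, these were 8.48, 8.02, 8.37 and 8.18. All 3 subunit genes were highest in line 1 and lowest in line 2, within a range of at most 0.67. Rnaseh1, which encodes the separate single-chain RNase H1, was highest in line 3, at 7.99, and lowest in line 2, at 7.44.

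Markers of the labelled cell type were present. Of 29 fibroblast and mesenchyme markers with a probe, 28 (96.6%) were detected in all 4 lines, against 44.2% of all named genes. Their median signal was 10.16, against 8.40 over all detected genes. Lox, which cross-links collagen, had a mean of 14.21 ± 0.12 (SD, n = 4), the intermediate filament gene Vim 14.16 ± 0.19 and Sparc, a matrix glycoprotein, 13.87 ± 0.16. Col5a1, a fibrillar collagen chain, stood at 13.46 ± 0.23. The 1 marker not detected was Cdh2, which encodes N-cadherin. Of 14 smooth muscle and contractile markers 11 were detected in all lines, with Acta2, the smooth muscle actin that activated fibroblasts also make, at 14.15 ± 0.11. Myh11, which marks mature smooth muscle, was detected in only some lines, with a highest signal of 5.65.

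Markers of other cell types were detected to an extent that differed between lists. Over all named genes, 44.2% were detected in all 4 lines and 48.9% in none. The share in none was 50.0% for epithelial markers, near that of all named genes. For the other lists given here it ran from 64.7% (endothelial) to 84.6% (pluripotency and germ cell). None of 18 blood and macrophage markers and none of 13 pluripotency and germ cell markers was detected in all 4 lines, and 12 and 11 of them were detected in none. The defining blood genes Ptprc, Spi1, Gata1 and Adgre1 were detected in no line. The remaining 6 blood markers were detected in 1 to 3 lines, led by Lyz2, a lysozyme of macrophages, at 6.62 in line 1. So were 2 pluripotency markers, Nanog, at 6.24 in line 2, and Pou5f1, at 5.73 in line 3. Of 18 epithelial markers, 1 was detected in all lines (Cdh3, which encodes P-cadherin) and 8 in 1 to 3 lines, while Epcam, Esrp1 and Grhl2 were in none. Among those 8, Krt19, a keratin of simple epithelia and mesothelium, had signals of 7.51, 6.99, 4.89 and 6.65, so that line 3 was at background and the others were not. Krt14 was detected in lines 1 to 3, at 7.06, 7.05 and 6.03, and Cdh1 in lines 2 and 3, at 6.37 and 6.22. Krt8 reached 6.70 in line 2, and the rest were Krt7, Krt18, Cldn7 and Tspan8. Of 17 endothelial markers, 4 were detected in all lines and 11 in none. Those in none included Pecam1, Cdh5, Kdr and Vwf. Of the 4, Flt1, a receptor for Vegf, had signals of 8.24, 9.60, 9.67 and 9.49 and the angiopoietin receptor gene Tek had 6.04, 7.25, 6.55 and 7.18, each lowest in line 1, and Eng and Egfl7 had means of 6.90 and 7.43. Of 21 neural markers, 5 were detected in all lines and 15 in none, among them Sox2, Sox10 and Tubb3. Stmn2, of growing neurites, had signals of 9.44, 10.61, 10.95 and 10.43, and Nes, an intermediate filament gene of many progenitor cells, had 9.02, 7.32, 6.79 and 7.92, with Gap43, Map2 and Mbp the others. Of 12 liver and endoderm markers, only Apoa2 was detected in all lines, at a mean of 5.91, and 9 were in none, among them Alb, Afp and Ttr. The other 2 were detected in some lines. Trf had signals of 7.25, 6.94, 5.35 and 6.61, without detection in line 3, and Foxa1 reached 6.12 in line 2. Fewer cells of a type and less RNA per cell cannot be told apart in these bulk samples.

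Families for protein synthesis and energy supply were detected in all lines for at least 80.6% of their genes, against 44.2% of all named genes. Of 58 cytosolic ribosomal protein genes, 51 were detected in all 4 lines with a median signal of 13.63, and 42 of the 51 lay among the brightest 10% of all detected genes, which began at 10.97. Of the 20 genes with the highest mean signal, 10 were of this family, led by Rplp1 at 14.90 ± 0.05 (SD, n = 4), Rps2 at 14.86 ± 0.06 and Rps29 at 14.83 ± 0.02. Ribosomal protein genes have many near-identical pseudogene copies, which a short probe may not tell apart. All 16 ATP synthase subunits, all 8 subunits of the CCT chaperonin, which folds actin and tubulin, and all 12 glycolysis enzymes with a probe were detected in every line. So were 72 of 76 mitochondrial ribosomal proteins, 41 of 43 respiratory complex I subunits and assembly factors and 39 of 47 proteasome subunits, which degrade proteins. Translation initiation and elongation factors were detected in all lines for 50 of 62 genes and in none for 11, and cytochrome c oxidase subunits for 13 of 16 and in none for 3. The other genes among the brightest 20 included Bgn, a matrix proteoglycan, at 14.77 ± 0.10, Igf2, the imprinted fetal growth factor, at 14.67 ± 0.15, Lgals1, a galectin, at 14.71 ± 0.06, and the tubulin gene Tuba1b at 14.67 ± 0.18.

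At the other end stood the large families of sensory and barrier tissues. Of 1071 olfactory receptor genes, 1056 were detected in no line and 1 in all 4, Olfr724, at a mean of 6.12. None of 170 vomeronasal receptors was detected in all lines, and 167 were in none. All 48 defensins, which are antimicrobial peptides, all 42 keratin-associated proteins of hair and all 6 major urinary proteins were detected in no line. Of 45 keratins 37 were not detected in any line, and Krt10 alone was detected in all, at 9.44 ± 0.15. Of 85 cytochrome P450 genes 73 were detected in no line, while Cyp1b1 had a mean of 12.90 and Cyp51, of cholesterol synthesis, one of 10.44. Potassium channels were detected in all lines for 8 of 88 genes, and serpins for 7 of 55, with Serpinh1, the collagen chaperone, at 12.77. Genes named Zfp, which encode zinc finger proteins, were detected in all lines for 166 of 328 (50.6%), near the 44.2% of all named genes, at a median signal of 7.14, and no member was among the brightest 10%.

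**Figure D1:**
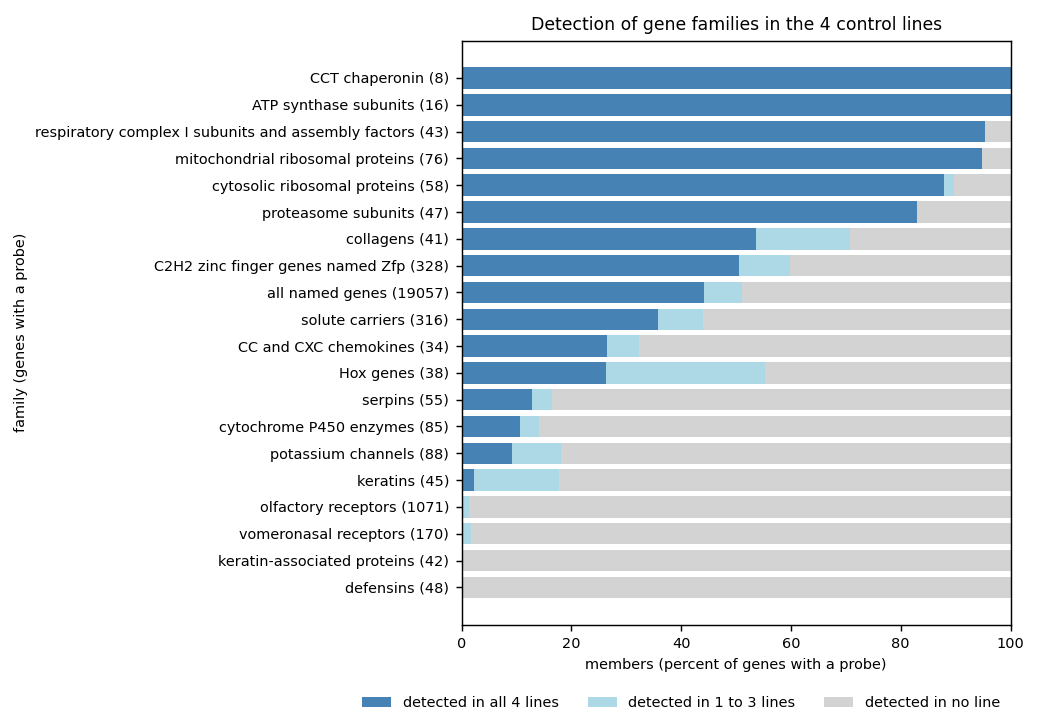
Share of each family's genes with a probe (percent, horizontal axis) that was detected in all 4 control lines, in 1 to 3 lines or in none, with the number of genes in parentheses. ATP synthase and CCT chaperonin genes were all detected in every line, and all 48 defensins and 42 keratin-associated proteins in none, against 44.2% of all named genes in every line.

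The chromosomes differed in the share of genes detected in all 4 lines. It ran from 34.8% of 1691 genes on chromosome 7 to 51.1% of 1106 on chromosome 5 among autosomes, was 37.1% of 711 genes on X and was 7 of 8 for the mitochondrial genome. Chromosome 7 holds 229 of the olfactory receptor genes on the array, and chromosome 2, where the share was 40.5%, holds 280.

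The genes of the 3 detection classes also differed in the sequence at their starts. CG dinucleotides are rare in the mouse genome except in CpG islands, which cover the promoters of most widely used genes. RefSeq promoter sequences (GRCm38.p6, 250 bases before to 50 after a start) matched 15237 of 19057 genes. Averaged over a gene's starts, the median number of CG dinucleotides per 300 bases was 21.5 for genes detected in all 4 lines, 17.0 for those in 1 to 3 lines and 6.0 for those in none. Without olfactory and vomeronasal receptors, a restriction chosen after the values were seen, the last was 7.0. At least 10 CG were present for 88.9% of genes detected in all lines and 36.8% of those in none. The motif TATAA, read on either strand (TATAA or TTATA), was scored as the share of a gene's promoters that held it. Averaged over genes, this share was 12.9%, 16.6% and 30.7% in these classes and 21.7% over all named genes. Without olfactory and vomeronasal receptors it was 25.1% for genes detected in no line, and for olfactory receptors alone it was 65.4%. Of all 32851 promoters of the table, 24.9% held the motif. A match shows only that these letters are present.

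**Figure D2:**
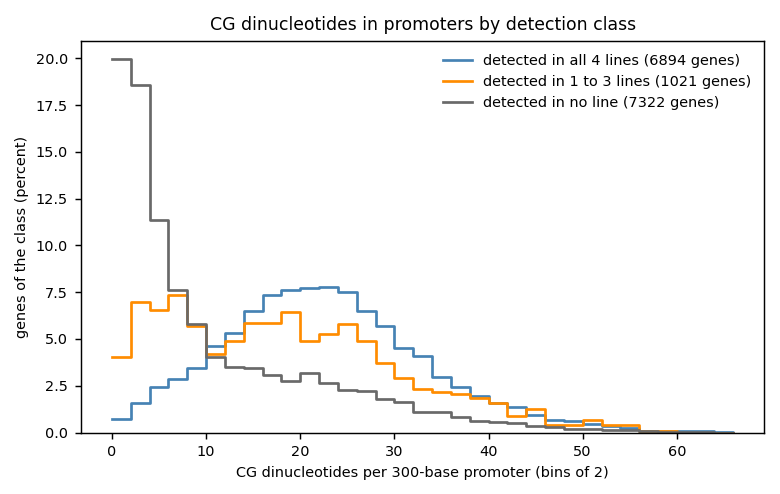
Number of CG dinucleotides per 300-base promoter (horizontal axis, bins of 2) against the percent of genes of each detection class (vertical axis). Genes detected in no line pile up at few CG, with a median of 6.0, and genes detected in all lines centre on a median of 21.5.

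Promoters of a gene detected at high signal, of one detected in no line and of a gene that differed widely between lines are shown, with each CG in capitals. Gapdh, a glycolysis enzyme with signals of 14.23, 14.19, 14.19 and 14.25, starts within chr6:125165724-125166023 on the minus strand and holds 12 CG. Alb, the liver's albumin gene, with signals of 4.62, 4.38, 4.42 and 4.35 at background, starts within chr5:90460620-90460919 on the plus strand and holds 3. Plac8, a small cysteine-rich protein gene first found in placenta, has a start in each of chr5:100563047-100563346, with 9 CG, and chr5:100572156-100572455, with 5, on the minus strand.
Gapdh: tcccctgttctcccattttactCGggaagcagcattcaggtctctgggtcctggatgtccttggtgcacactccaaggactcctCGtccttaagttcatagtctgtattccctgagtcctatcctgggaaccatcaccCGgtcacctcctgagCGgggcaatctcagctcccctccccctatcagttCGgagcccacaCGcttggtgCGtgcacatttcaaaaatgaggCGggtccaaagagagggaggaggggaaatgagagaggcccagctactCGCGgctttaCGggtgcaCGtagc
Alb: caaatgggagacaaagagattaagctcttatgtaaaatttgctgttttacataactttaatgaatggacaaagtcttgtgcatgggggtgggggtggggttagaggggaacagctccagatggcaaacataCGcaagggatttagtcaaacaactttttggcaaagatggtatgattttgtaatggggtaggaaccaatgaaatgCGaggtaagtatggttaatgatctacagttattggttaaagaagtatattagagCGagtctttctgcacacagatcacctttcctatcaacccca
Plac8, first start by coordinate: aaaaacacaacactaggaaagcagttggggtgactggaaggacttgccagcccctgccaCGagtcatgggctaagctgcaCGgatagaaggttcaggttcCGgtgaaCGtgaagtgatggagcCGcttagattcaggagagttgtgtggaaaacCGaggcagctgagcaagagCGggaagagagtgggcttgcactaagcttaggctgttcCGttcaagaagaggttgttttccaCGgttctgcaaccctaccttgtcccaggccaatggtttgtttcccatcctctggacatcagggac
Plac8, second start by coordinate: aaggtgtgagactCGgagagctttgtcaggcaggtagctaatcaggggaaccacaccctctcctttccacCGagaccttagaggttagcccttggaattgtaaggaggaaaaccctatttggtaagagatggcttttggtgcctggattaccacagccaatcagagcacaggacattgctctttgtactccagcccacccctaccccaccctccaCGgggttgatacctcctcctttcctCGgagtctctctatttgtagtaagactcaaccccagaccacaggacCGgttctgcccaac

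Most detected genes were even across the lines. The range, the highest minus the lowest log2 signal of a gene among the 4 lines, had a median of 0.39, which is 1.31-fold, and was under 1.08 for 95% of genes. It reached at least 1, a difference of 2-fold, for 542 of 8430 genes (6.43%), and at least 2 for 62. Each line was 1 array, so the arrays' technical spread and the difference between embryos cannot be told apart and no test between lines was possible. Among genes of low signal a large range was more frequent, at 8.54% of the 25% of genes with the lowest mean signal and 3.70% of the 25% with the highest. Where a gene had a second probe detected in all lines, that probe gave a separate reading. Of 164 genes whose first probe ranged by at least 1, the second probe differed in the same direction between the same pair of lines for 154, by a median of 0.95. For 75.0% of the 164 the same line was highest by both probes, against 34.4% of the 610 genes whose first probe ranged by under 0.25.

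Line 1 stood apart from the others. Across the 8430 genes its Pearson correlation with lines 2, 3 and 4 was 0.969, 0.966 and 0.975, and the other 3 pairs lay between 0.985 and 0.989. These are correlations across genes, which share probes and are not independent replicates. Of the 542 variable genes, line 1 was the farthest from the median for 333, being high for 181 and low for 152. Lines 2, 3 and 4 were the farthest for 73, 89 and 47. Without line 1 the number of genes with a range of at least 1 was 181, and without line 2, 3 or 4 it was 396, 407 and 476. The median range was 0.25 without line 1, and 0.32, 0.34 and 0.35 without line 2, 3 or 4, against 0.39 with all 4 lines. For a given gene, a range over 3 lines cannot exceed that over 4.

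The sex of the embryos was not the same. Xist, the RNA that coats the inactive X in female cells, had signals of 4.47, 4.40, 8.96 and 9.13 by its brightest probe, and all 4 of its probes were detected in lines 3 and 4 only. Eif2s3y, a Y-linked translation factor gene, had signals of 10.23, 10.19, 4.74 and 4.38. Kdm5d, a Y-linked histone demethylase gene, had signals of 8.47, 7.91, 4.44 and 4.53. For each of the pair 1 of 2 probes was detected. Lines 1 and 2 thus expressed Y-linked genes and lines 3 and 4 Xist. For Eif2s3y line 1 was at least 25.4-fold above the mean of lines 3 and 4. For Xist, by its brightest probe, line 4 was at least 11.8-fold above the mean of lines 1 and 2. The other Xist probes gave bounds from 3.07-fold to 11.5-fold for their highest line. These bounds set the highest line against the mean, over the lines without detection, of the higher of the probe's own signal and the lowest signal of a detected probe on that array. Zfy1 and Usp9y were detected in no line, and 1 of 4 Uty probes was detected, at no more than 6.02, in lines 1, 2 and 4.

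The 20 genes with the largest range were taken by that value, rounded to 2 decimals, with ties in order of gene name. Comp, the last of them, tied with Zic1, whose unrounded range was larger. Osr2, a zinc finger gene of palate, limb and kidney development, had signals of 7.62, 11.46, 9.29 and 10.71, a range of 14.3-fold. It was lowest in line 1 and highest in line 2. Plac8, shown above, had signals of 11.31, 8.72, 7.77 and 9.63, a range of 11.6-fold with line 1 highest. Gjb2, a gap junction gene, ran 10.42, 9.47, 6.98 and 8.61, and was lowest in line 3. Of the 20 genes with the largest range, line 1 was the lowest for 11, among them Alx4 and Gsc, which pattern the head and limbs, the Notch target Hey1 and the cartilage matrix genes Matn4 and Comp. The others of the 11 were Osr2, Gper1, Rerg, Ccdc3, Sbspon and Adh7. Line 1 was the highest for the other 9, among them Esm1 of endothelium, the uroplakin genes Upk1b and Upk3b, which mesothelium also expresses, the muscle genes Myl1, Des and Actc1, and Gata6, with Plac8 and Gjb2 the others. Line 3 was the lowest for 7 of these 9, as for Des at 5.94, Upk1b at 6.12 and Upk3b at 6.09.

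**Figure D3:**
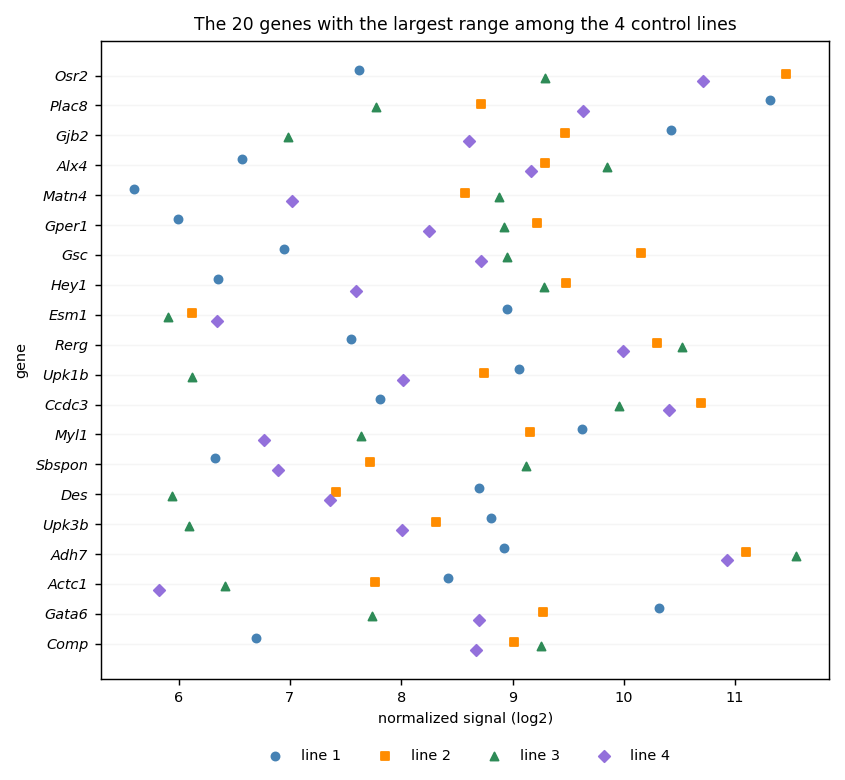
Normalized log2 signal (horizontal axis) of the 20 genes with the largest range, 1 symbol per control line. Line 1 is at one end for every gene shown, the lowest for 11 and the highest for 9.

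Genes detected in 1 to 3 lines had to differ between lines to fall in that class, so the 10 with the largest bounds are given as values and bear on nothing else. Tfap2b, a transcription factor gene of the neural crest, had signals of 4.78, 11.44, 11.19 and 11.60 by the probe with its largest bound. By that probe it was at least 66.1-fold higher in line 4 than in line 1, where it was not detected. Its other probes detected in the same lines gave bounds from 1.55-fold to 30.8-fold for their highest line. Msx1, a homeobox gene of face and limb buds, had signals of 4.69, 6.81, 10.00 and 6.41. Sostdc1, a secreted antagonist of Bmp signals, had signals of 4.57, 8.23, 9.83 and 8.04. Line 3 was the highest for both. Of the 10 genes with the largest bounds, 6 were missing from line 1 alone, the others of these being Vit, Tfap2a, which acts with Tfap2b in the neural crest, and Chodl.

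Hox genes, the clustered homeobox genes that specify position along the body axis, varied as a group. Of 38 with a probe, 10 were detected in all 4 lines, 11 in 1 to 3 lines and 17 in none, and all 10 had a range of at least 1, against 6.43% of all detected genes. Hoxa5 had signals of 10.37, 9.54, 7.82 and 8.51 in lines 1 to 4. For Hoxb5 these were 9.46, 8.35, 7.08 and 7.58, and for Hoxb4 they were 9.04, 8.78, 6.83 and 7.64. Line 1 was highest for 9 of the 10, with Hoxc6 highest in line 2, and line 3 was lowest for 8. The mean over the 10 was 9.15, 8.27, 7.24 and 7.45. Without line 1, 6 of the 10 still ranged by at least 1. Among the 11 detected in some lines, Hoxd9, at 7.37 in line 1 and at most 5.27 in the others, and Hoxa11, at 6.33 and at most 4.79, were detected in line 1 only. The brightest detected probe of Hoxb3 was also detected in line 1 only, at 6.28, and another of its probes in line 2 only. Hoxd10 was detected in lines 1 and 2, at 8.65 and 5.88, and was at least 8.50-fold higher in line 1 than the mean of lines 3 and 4. Hoxa13, of the distal limb and hindgut, went the other way and was not detected in line 1 alone, with signals of 5.14, 5.69, 5.98 and 5.81.

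**Figure D4:**
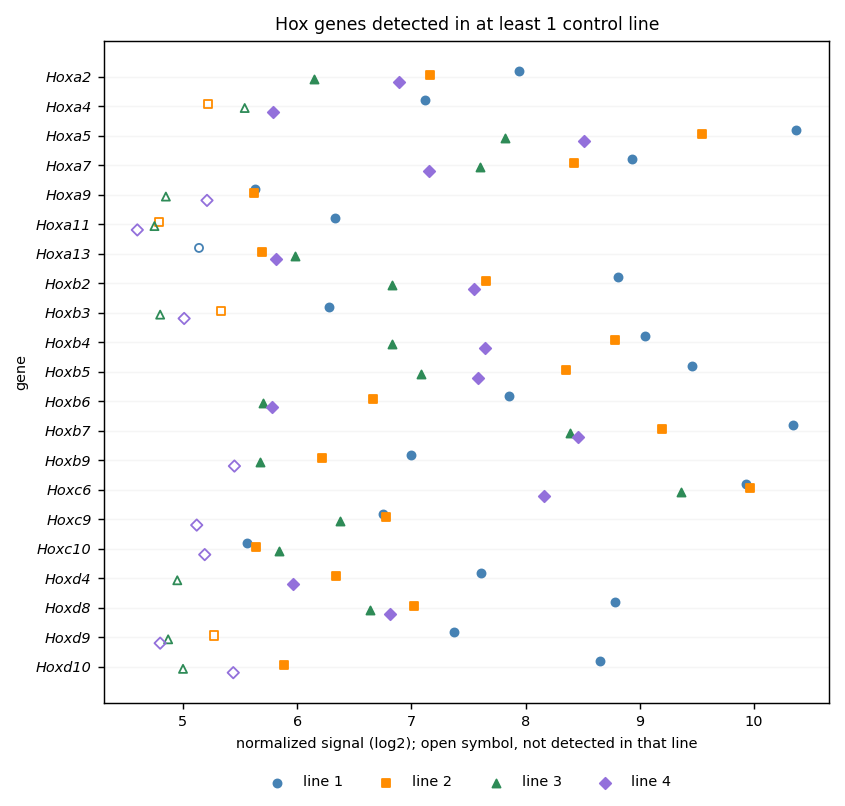
Normalized log2 signal (horizontal axis) of the 21 Hox genes detected in at least 1 control line, 1 symbol per line, filled where detected. Line 1 is highest for 9 of the 10 genes detected in all lines, and Hoxd9, Hoxa11 and Hoxb3 are filled in line 1 only. Genes not detected in all lines are drawn by their brightest detected probe.

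Other regional transcription factors divided in both directions. Of 43 with a probe, 17 (39.5%) were detected in all lines, near the 44.2% of all named genes. Of the 17, 8 (47.1%) had a range of at least 1, against 6.43% of all detected genes, and 3 had it without line 1. Gata6, of heart and endoderm, had signals of 10.32, 9.27, 7.74 and 8.70. Foxd1, of kidney stroma and limb, had signals of 9.00, 8.82, 6.60 and 7.05. Both were highest in line 1 and lowest in line 3. Alx4, by contrast, had signals of 6.57, 9.29, 9.85 and 9.17, and Irx3 had 9.95, 11.14, 11.21 and 10.53, each lowest in line 1. Alx1, Six2 and Pax3, all of head mesenchyme or neural crest, were detected in lines 2, 3 and 4 and not in line 1, where their signals were 4.77, 5.16 and 4.85. Hand2, of heart and limb, was detected in line 1 only, at 6.06. A further 18 (41.9%) were detected in no line, among them Tbx5, Pitx1 and Nkx2-5, against 48.9% of all named genes.

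Muscle genes were graded between lines. Of 25 skeletal and cardiac muscle markers, 6 (24.0%) were detected in all lines, against 44.2% of all named genes. All 6 encode contractile proteins and had a range of at least 1, against 6.43% of all detected genes. Myl1, a myosin light chain gene, had signals of 9.62, 9.16, 7.64 and 6.77. Actc1, cardiac actin, had signals of 8.42, 7.76, 6.42 and 5.82. All 6 were highest in line 1 and 5 were lowest in line 4, with means over the list of 8.82, 8.37, 7.41 and 7.06. Myod1, Myf5 and Pax7, which specify muscle cells, were detected in no line, and Myog, which drives their differentiation, was detected only in line 4, at 5.66, the line with the lowest muscle mean. Pax3, also on the list, was detected in lines 2, 3 and 4, at 5.90, 6.21 and 5.81, but not in line 1. Other members detected in some lines were brightest in line 1. Tnnt1 had signals of 7.70, 6.71, 5.51 and 6.28, and Tnni1 and Myh8 reached 5.93 and 5.82 in line 1. Lines 1 and 2, where both the Hox and the muscle means were higher, are also the lines with Y-linked transcripts, and the part of sex in these values was not tested.

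Proliferation genes were detected for 24 of 27, and all 24 were highest in line 1. Line 2 was the lowest for 19. The mean over the 24 was 9.36, 8.53, 8.82 and 8.87. Pcna, the DNA polymerase clamp, had signals of 8.98, 8.23, 7.46 and 7.00. Birc5, of mitosis, had signals of 10.65, 9.36, 9.93 and 10.19, and Rrm2, a subunit of ribonucleotide reductase, had 8.72, 7.39, 8.15 and 8.04. Of the 24 genes, 9 (37.5%) had a range of at least 1, against 6.43% of all detected genes. The count fell to 1 without line 1 and to 1 without line 2. The 10 CDK inhibitor and D cyclin genes were detected in full, and of 21 p53 target genes with a probe 16 (76.2%) were detected in all lines, against 44.2% of all named genes. None of either list ranged by as much as 1, which for lists of this size is near the 6.43% of all detected genes. Cdkn1a, which encodes the CDK inhibitor p21, had signals of 7.20, 7.39, 7.87 and 7.59, and Mdm2, the ubiquitin ligase for p53, had 9.56, 9.95, 9.88 and 9.86, while Btg2 and Perp were in no line.

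**Figure D5:**
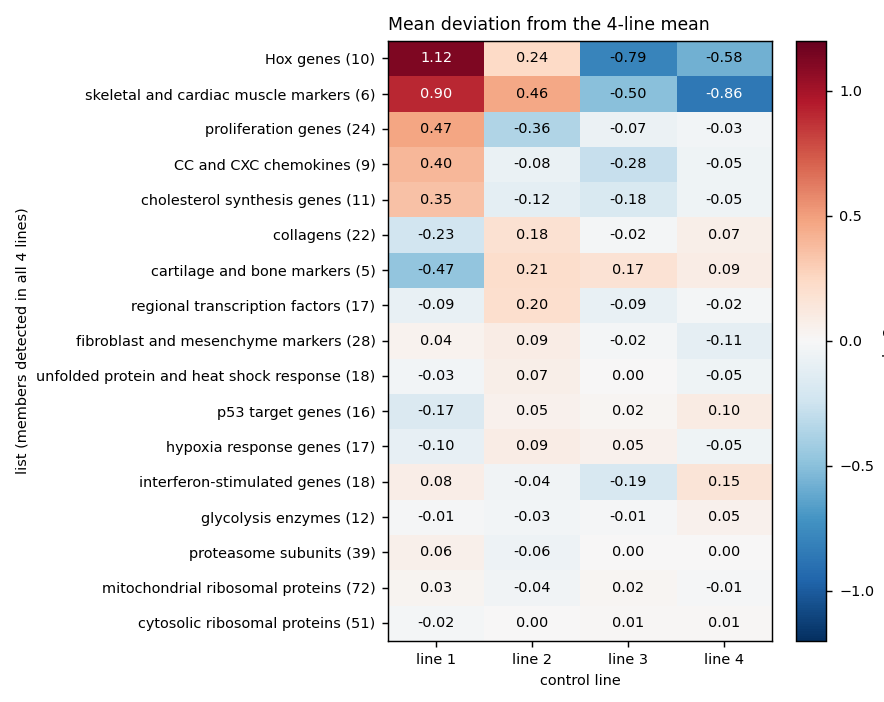
Mean deviation of each list's genes from their own mean over the 4 control lines (log2, colour and printed value), by line, over the members detected in all lines (number in parentheses). Hox genes deviate by 1.12 in line 1 and -0.79 in line 3, and cytosolic ribosomal proteins by at most 0.02 in any line. The line means of cytosolic ribosomal proteins differ by 0.03 here. With median scaling they differ by 0.15 after background correction and by 0.1 from raw log2 intensity.

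Genes of protein folding and stress divided within their own list. All 18 genes of the unfolded protein and heat shock response were detected. Of these, 7 (38.9%) had a range of at least 1, against 6.43% of all detected genes. The count was 1 without line 1 and 4 without line 3. The list means differed by only 0.12. Hspa5, the chaperone of the endoplasmic reticulum, had signals of 9.50, 8.86, 7.72 and 7.60. Calr, a calcium-binding chaperone there, had 11.03, 9.77, 9.88 and 9.95. Both were highest in line 1. Chac1, which degrades glutathione, had 9.38, 10.85, 11.14 and 10.79, and Trib3, a pseudokinase, had 7.68, 8.90, 9.43 and 9.10. Both are known targets of the Atf4 pathway and were lowest in line 1. Cholesterol synthesis genes were highest in line 1 for 9 of 11, and 3 of them (Idi1, Lss and Dhcr7) had a range of at least 1, or 1 of them without line 1 and 2 without line 2 or 3. Of 17 hypoxia response genes detected in all lines, Mxi1 and Car9 ranged by at least 1, and only 1 of them did so without line 2, 3 or 4. Vegfa, the endothelial growth factor, had signals of 9.20, 9.94, 9.76 and 9.63.

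The matrix and secreted factors held both even and uneven genes. Of 41 collagen genes 22 (53.7%) were detected in all lines, against 44.2% of all named genes. Of the 22, 5 (22.7%) had a range of at least 1, against 6.43% of all detected genes, and 1 had it without line 1. Line 1 was the lowest for 15 of the 22. Col18a1, of basement membranes, had signals of 8.72, 10.26, 10.65 and 10.27, and Col8a2 had 7.59, 9.28, 9.09 and 8.87. In the other direction Col1a1, the main chain of type I collagen, had 13.26, 12.30, 12.47 and 12.67, with line 1 the highest, while its partner Col1a2 had 12.88, 13.44, 12.94 and 12.85. Of 13 secreted factors of senescence detected in all lines, 6 (46.2%) had a range of at least 1, or 2 without line 1. Igfbp4, which binds insulin-like growth factors, had 11.31, 13.32, 13.51 and 13.21 and was lowest in line 1, whereas Igfbp5 had 13.11, 12.70, 11.69 and 11.78. Of 34 CC and CXC chemokines, 9 (26.5%) were detected in all lines and 23 (67.6%) in none, against 44.2% and 48.9% of all named genes. Cxcl12, which attracts leukocytes and stem cells, was the brightest of them, with signals of 13.14, 12.44, 11.78 and 12.76. Ccl2 and Ccl7, monocyte attractants, were detected in all lines at means of 8.59 and 9.27.

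Of 37 interferon-stimulated genes with a probe, 18 (48.6%) were detected in all control lines and 18 in none, shares near the 44.2% and 48.9% over all named genes. Ifitm3, a membrane protein that restricts virus entry, had signals of 13.02, 12.67, 12.64 and 12.33. Apart from it the highest mean was 9.48, for the GTPase gene Irgm1. Ifit2 had signals of 8.03, 6.85, 6.76 and 7.42 and Ccl5 had 7.08, 6.39, 5.82 and 6.60, the only members with a range of at least 1, and none reached that without line 1 and 1 without line 3. Mx1, Rsad2, Irf7 and Cxcl10 were detected in no line. Of 19 type I and III interferon genes 16 were detected in none, and the probes for Ifnab and Ifna6 were detected in all lines, at means of 7.20 and 6.31. The interferon alpha genes are near-identical copies that a probe may not tell apart.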

How the data were processed

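The series holds 6 single-colour Illumina arrays, 1 per MEF line, and the 4 p53-/- Rnaseh2b+/+ arrays are described. The authors deposited the raw bead-summary intensity of each probe, a detection p-value from their software, and log2 values made with neqc of limma. The p-values step by 1 in 936. The intensity was processed here with limma 3.58.1 in R 4.3.3 by neqc over all 6 arrays, with background estimated from the detection p-values and an offset of 16. The log2 values differed from those deposited by at most 0.109 on the control arrays. The platform annotation gave 1 gene symbol for 34885 of the 45281 probes, several for 18 and none for 10378, and only the first were named. A gene's signal is the mean of its probes detected on all 4 arrays. Precision is limited by 1 array per line. Apart from Dixon's limit for a line far from the others, given below, no test was run.

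The members, 26 gene lists and 44 families (by symbol pattern) were chosen with earlier results of these data known. Patterns of 4 families that caught genes outside them were corrected after the files were seen, and the histone family, which matched no gene, was dropped. Genes named were the RNase H, Xist and Y-linked lists, the 20 with the highest signal, the 20 with the largest range, the 10 with the largest bounds, and up to 4 members by range and 4 by signal of each list described. Other genes named, among them the markers that were not detected, Alx1, Six2, Pax3, Hand2, several Hox genes and Sdha, were chosen after their values were seen. Steps were checked on simulated arrays. Alternatives were 5 other scalings, other filters and probe rules, and each line left out.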

Additional observations from a re-analysis of the deposited data

Results flagged for a closer look

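Sets of 4 line values were examined for a line far from the other 3. The 90 sets were the 20 brightest genes, the 20 with the largest range, the RNase H genes and the list means. Of these, 3 passed Dixon's critical value for groups of 4. Chance alone flags about 1 in 20, or 4.5 of the 90, so fewer passed than that. The 20 genes with the largest range, Esm1 among them, were picked by their spread over the same 4 lines, so for them the limit is no fair test. Esm1, an endothelial proteoglycan gene, had a gap of 0.854 of its whole range, with line 1 at 8.95 and the others at 6.12, 5.90 and 6.34. The mean of 5 cartilage and bone markers had a gap of 0.832, with line 1 at 7.46 and the others at 8.14, 8.10 and 8.02. Line 1 was the lowest for 3 of the 5, and only Comp, at 6.69, 9.01, 9.26 and 8.67, ranged by at least 1. Comp is also among the 20 genes with the largest range, so this mean is no separate observation from that gene. Ubb-ps, a ubiquitin pseudogene whose probes may read its parent gene, had a gap of 0.89, with line 2 at 14.84 and the other 3 at 14.79, within a range of 1.04-fold. Over all 8430 genes, 508 (6.03%) passed the same limit, and line 1 was the line apart for 289 of them. The cause was not tested.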

How the results depend on the processing

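The number of genes with a range of at least 1 among the lines, 542, was 250 with raw log2 intensity and median scaling, 353 with an offset of 50, 237 among genes with a mean signal of at least 8 (fewer genes) and 62 at a range of at least 2. With each line left out it lay between 181 (without line 1) and 476. Of the 181 genes, 173 were among the 542. The number of genes detected in all lines fell from 8430 to 4969 where every probe of a gene had to be detected, and lay between 8501 and 8566 with a line left out. Other filters and scalings kept the counts of probes and genes detected, of genes not detected, and of variable genes within 1.5 times their values. With median scaling the line medians over detected genes differed by up to 0.27, line 2 being the highest and line 4 the lowest. The highest and lowest lines for the means of Hox, muscle, proliferation, chemokine, cholesterol synthesis, collagen and cartilage genes were the same under the 5 other scalings and the brightest probe. So were those for fibroblast markers and for the unfolded protein and heat shock response. For regional transcription factors, hypoxia response genes and proteasome subunits the lowest line changed, and for p53 targets and interferon-stimulated genes the highest. Both changed for glycolysis enzymes and for mitochondrial and cytosolic ribosomal proteins. No paired analysis was possible because 1 group is described and no groups were compared. With 1 array per line, and a threshold of 0.01 that a probe without signal can pass by chance, single detections near background carry little weight.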
